A study of Homo sapiens with 2 samples.

Results

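The genes described here are those of transport between the nucleus and the cytoplasm: the nucleoporins that build the nuclear pore, the importins and exportins that carry cargo through it, and the genes of the RAN cycle that gives this traffic its direction. Members were taken by symbol from the deposited table: NUP, IPO and XPO genes with a number (and XPOT), KPNA, KPNB, TNPO and RANBP genes, and RAN, RCC1, RANGAP1, CSE1L, TPR and NUTF2, without pseudogenes. The rule found 63 of 50464 symbols and used no measured value. The RNA came from KASUMI-1, an established human line of acute myeloid leukaemia with a RUNX1-RUNX1T1 fusion gene. Infection was by lentivirus, named pccl in the control group, as understood here, and USP6, the name of a deubiquitinase, in the other. Both groups are the same cell line and hold 1 library each, so differences have no replicate check, no test was run, and the 95% intervals in parentheses cover counting error only. Values are given with pccl first and USP6 second.

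The nuclear pore is a large protein ring set in the nuclear envelope. Its outer and inner rings form the scaffold, nucleoporins with phenylalanine-glycine repeats fill the channel, and filaments and a basket extend to the cytoplasm and the nucleus. Importins bind cargo in the cytoplasm and release it when they meet RAN loaded with GTP in the nucleus, whereas exportins bind cargo together with RAN-GTP and release it outside. RCC1 loads RAN with GTP on chromatin, and RANGAP1 with RANBP1 and RANBP2 lets the GTP be split in the cytoplasm. NUP98 and NUP214 are known fusion partners in leukaemia, and the exportin XPO1 is a drug target in blood cancers.

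Promoter sequences are shown for 4 members that stood at or past the limit used below, chosen after their values were seen and because the window lies almost wholly before the gene's locus. KPNA1 and KPNA6 encode related importin alpha adaptors, IPO7 an import receptor, all lower with USP6, and RANBP6 is the member that was higher. Each run holds the 250 bases before the RefSeq start on GRCh38.p14, 5′ to 3′ on the gene's strand. Capitals mark every match, on either strand, to the CCAAT box (CCAAT), the GC box (GGGCGG), the E-box (CACGTG), the TATA box (TATAAA), an ETS motif (CCGGAAGT) or the NRF1 motif, which is given by name.
KPNA1, chr3:122514940-122515189, minus strand: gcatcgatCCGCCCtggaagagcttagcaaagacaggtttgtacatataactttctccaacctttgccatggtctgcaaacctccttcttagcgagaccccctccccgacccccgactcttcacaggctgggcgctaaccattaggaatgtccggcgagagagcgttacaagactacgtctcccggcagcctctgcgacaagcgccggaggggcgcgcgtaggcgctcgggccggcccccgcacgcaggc
KPNA6, chr1:32107806-32108055, plus strand: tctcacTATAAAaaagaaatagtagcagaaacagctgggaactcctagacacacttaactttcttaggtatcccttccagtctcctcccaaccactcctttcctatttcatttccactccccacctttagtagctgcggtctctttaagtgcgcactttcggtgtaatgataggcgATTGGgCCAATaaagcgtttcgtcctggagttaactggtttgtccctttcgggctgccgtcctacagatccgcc
IPO7, chr11:9384402-9384651, plus strand: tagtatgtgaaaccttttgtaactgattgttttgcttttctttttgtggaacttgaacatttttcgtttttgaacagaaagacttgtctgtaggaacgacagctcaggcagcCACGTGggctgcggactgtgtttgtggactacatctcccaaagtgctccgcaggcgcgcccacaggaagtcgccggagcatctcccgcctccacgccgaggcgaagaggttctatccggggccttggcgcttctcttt
RANBP6, chr9:6015625-6015874, minus strand: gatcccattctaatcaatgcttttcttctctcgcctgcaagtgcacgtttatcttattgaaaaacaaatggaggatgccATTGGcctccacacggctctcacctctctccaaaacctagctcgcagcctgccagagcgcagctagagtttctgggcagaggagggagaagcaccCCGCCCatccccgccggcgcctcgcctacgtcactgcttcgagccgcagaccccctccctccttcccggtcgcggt
The promoters shown share no single motif. KPNA6 has a pair of CCAAT matches on opposite strands and a TATA box match far from its start. KPNA1 has a GC box match, also far from its start, IPO7 an E-box match, and RANBP6 a CCAAT and a GC box match.

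The 56 members with a RefSeq promoter include 9 that stayed under 1 FPKM in both libraries, among them the noncoding IPO9-AS1 and NUP50-DT. Of these 9, 6 had a CCAAT match, 4 a GC box match and 2 an E-box match. NRF1, ETS and TATA box matches were in 1 each. Across all 56, a CCAAT match was found in 46.4%, against 33.0% of 27305 promoters of the same length and 35.8% of the 6881 promoters of expressed genes. An NRF1 match was found in 19.6% of members, against 5.53% and 12.1%. GC box matches were in 57.1% of members, against 42.3% and 69.0%, and E-box and ETS matches in 12.5% each, against 6.49% and 3.64% of all promoters and 9.66% and 8.46% of those of expressed genes. TATA box matches were in 5.36% of members, against 11.1% and 5.20%. Of the 12 promoters of members that were lower, 3 had a CCAAT match, 2 an NRF1 match and 6 a GC box match, against 16, 8 and 21 of the 34 promoters of members within the limit. E-box, ETS and TATA box matches were in 3, 2 and 1 of the 12 and in 2, 4 and 1 of the 34. These are letter matches in a fixed window and do not show binding.

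The libraries had 12306442 counts (pccl) and 12518795 counts (USP6), of which the mitochondrial genome took 49.9% and 45.6%. The USP6 gene had 8 and 70 counts. In FPKM (fragments scaled to gene length and to the sum of each library) that was 0.0396 and 0.340, under 1 FPKM in both libraries. The myeloid blast markers KIT and MPO had 99.3 and 27.4 FPKM with pccl and 39.99 and 122 with USP6. Of 7 such markers, 6 reached 1 FPKM, and of these 4 had more FPKM with USP6 and 2 had less. Among them, SPI1 had 94.0 and 230 FPKM and CD34 had 12.6 and 4.19. The sum of the list was 236 FPKM (pccl) and 404 (USP6), and CD38 had 0 and 8 counts. None of 4 erythroid and 5 fibroblast markers reached 1 FPKM. Of 5 epithelial markers EPCAM alone did, and KRT18, KRT19 and CDH1 were at 0. Of the T cell markers 3 of 4 reached 1 FPKM (sums 29.1 and 30.1 FPKM). The sums are mostly CD3D (27.8 and 22.6 FPKM), while CD3E (0.890 and 4.34) and CD2 (0.156 and 3.10) reached 1 FPKM with USP6 alone. Of the B cell markers 2 of 4 reached it (sums 3.61 and 11.8). Their part in the results below was not tested.

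Members were more often lower than higher with USP6. Of the 63, 4 had no count in either library (KPNA7, NUP210L, NUP62CL and RANBP3L), 6 had counts but stayed under 1 FPKM in both, and 53 reached 1 FPKM in the higher library. By log2((USP6 + 1)/(pccl + 1)) of FPKM, called the log2 ratio below, 14 of these 53 (26.4%) were lower by at least 1, that is by 2-fold on this scale, where 11.4% of 10153 expressed genes were. A single member (1.89%) was higher, RANBP6, where 13.7% of all expressed genes were. At 1.5-fold, 20 members were lower and 2 higher (37.7% and 3.77%), against 24.3% and 27.7% of all. The median log2 ratio was -0.39 over the members and 0.06 over all expressed genes. The members' counts summed to 56251 with pccl and 37233 with USP6, a ratio of 0.651 of the library totals (0.642 to 0.659). Of the 53, 8 reached 1 FPKM with pccl alone and 0 with USP6 alone, against 13.2% and 14.4% of all expressed genes, and 5 of the 14 lower members are among those 8. Fewer copies per cell and fewer cells with the message cannot be told apart in such libraries.

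**Figure D1:**
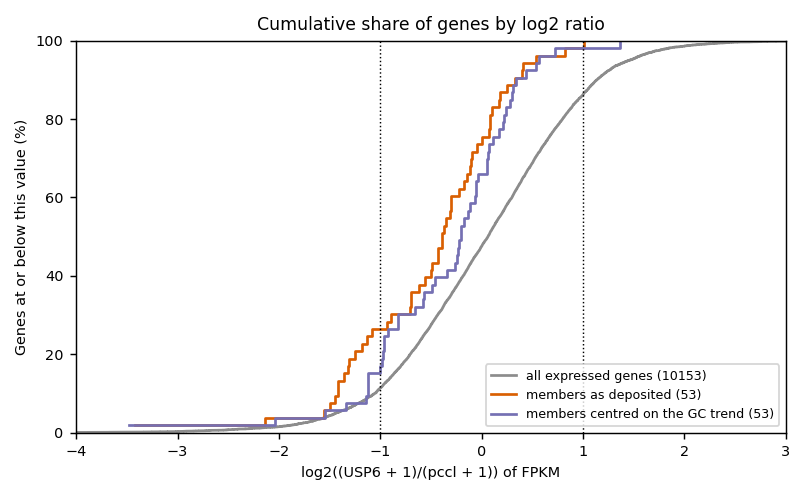
Cumulative share of genes (%) by log2((USP6 + 1)/(pccl + 1)) of FPKM for all 10153 expressed genes (grey), the 53 members (orange) and the members centred on the trend with GC content (purple), with dotted lines at -1 and 1. The member lines run left of the grey line over most of the range, with medians of -0.39 and -0.21. The grey line is not centred on GC and has a median of 0.06, where the centred median of all genes was -0.02.

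Ratios between these libraries rise with the GC content of the transcripts, and the members are poorer in GC than most genes. The median GC content of the longest annotated transcript was 43.3% over the 53 members and 48.5% over 8254 expressed protein-coding genes. Spearman's rho of GC content with the log2 ratio was 0.25 across the 53 members and 0.46 across those coding genes, every point coming from the same pair of libraries. Among the 40 members at or under 48.5% GC, 12 were lower (30%), against 17.5% of coding genes in that class. Among the 13 members above it, 2 were lower (15.4%), against 5.11%, and 0 were higher, against 18.9%. Centred on the GC trend, 9 members were lower and 1 higher, against 9.85% and 9.7% of all genes with a GC value. The median was then -0.21 over the members and -0.02 over all those genes. KPNB1 (-0.99), KPNA2 (-0.96), KPNA3 (-0.97), XPO4 (-0.96) and RAN (-0.83) then lay within the limit.

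**Figure D2:**
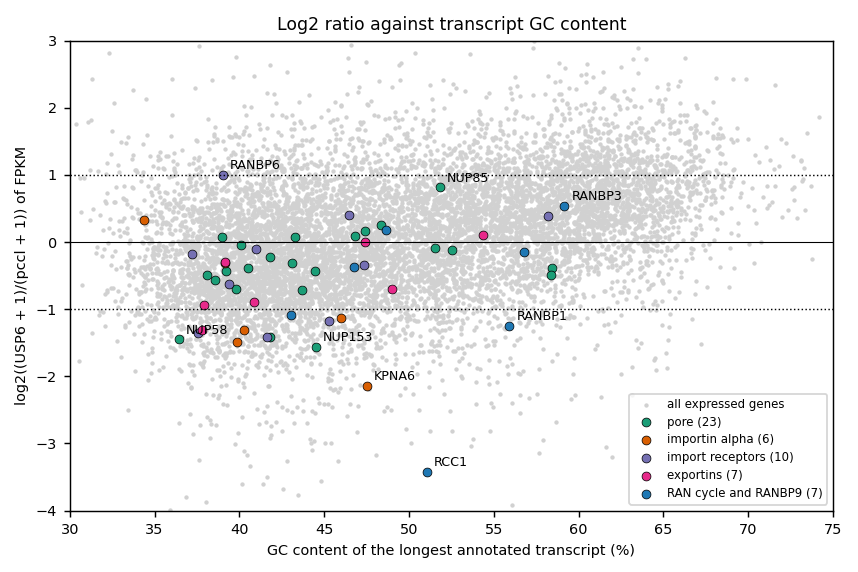
Log2((USP6 + 1)/(pccl + 1)) of FPKM against the GC content (%) of the longest annotated transcript, for all expressed genes (grey) and the 53 members coloured by role; each point is 1 gene, dotted lines mark -1 and 1, and genes outside the axis ranges are not drawn. RCC1 and KPNA6 lie lowest among the members, at -3.42 and -2.14, and RANBP6 highest at 1.01.

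Among the RAN cycle genes, the exchange factor RCC1, RAN itself and RANBP1 were lower, whereas RANGAP1, RANBP3 and NUTF2 lay within the limit. Of these 6 genes 50% were thus lower and 0 higher, against 11.4% and 13.7% of all expressed genes. Their median log2 ratio was -0.62. RCC1 (ENSG00000180198, chr1:28505943-28539300) had 1442 counts with pccl and 46 with USP6, or 14.6 and 0.457 FPKM. It was 31.9-fold lower (95% counting interval 23.8 to 43.8). RCC1 overlaps the snoRNA host gene SNHG3 on the same strand, so reads of the shared part cannot be told apart. SNHG3 had 503 and 124 counts and a log2 ratio of -1.62. The sum of both genes went from 1945 to 170 counts, 11.6-fold lower (9.95 to 13.7).

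RAN (ENSG00000132341, chr12:130871879-130877678) had 6.07 FPKM with pccl and 2.33 with USP6, 2.61-fold lower (2.29 to 2.97). The 9 RAN pseudogenes in the table had 11 and 5 counts in all, against 828 and 323 for RAN. RANBP1, which helps RANGAP1 act on RAN released from transport receptors, had 12.8 and 4.82 FPKM, 2.66-fold lower (2.40 to 2.96). TRMT2A, which overlaps RANBP1 on the other strand, had a log2 ratio of 0.90.

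The remaining genes of the cycle did not follow RCC1 and RAN. The GTPase activator RANGAP1 had 7.96 FPKM with pccl and 7.09 with USP6, a ratio of 0.891 (0.802 to 0.989). NUTF2, the carrier that brings RAN-GDP back into the nucleus, had 32.6 and 37.1 FPKM, a ratio of 1.14 (1.09 to 1.2). RANBP3, a cofactor of the exportin XPO1, had 5.41 and 8.32 FPKM, a ratio of 1.54 (1.40 to 1.68), and its log2 ratio of 0.54 was 0.05 after centring on GC. NUTF2 overlaps CENPT and RANBP3 overlaps CAPS, both on the other strand. Shares within a list do not depend on how the libraries are scaled: NUTF2 made up 41.0% of the summed FPKM of these genes with pccl and 61.7% with USP6, while RCC1 went from 18.4% to 0.760% and RAN from 7.64% to 3.87%.

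Importin alpha genes, whose products recognise classical nuclear localisation signals and hand the cargo to importin beta, were mostly lower. Of 7 listed genes 6 were expressed, of which 4 were lower and 0 higher, with a median log2 ratio of -1.22. Among all expressed genes 11.4% were lower and 13.7% higher. After centring on GC the median was -0.97, and KPNA2 (-0.96) and KPNA3 (-0.97) lay within the limit. KPNA6 (ENSG00000025800, chr1:32108038-32176568) had 515 counts (4.06 FPKM) with pccl and 19 counts (0.147 FPKM) with USP6. That is 27.6-fold lower (17.5 to 46.2), with a log2 ratio of -2.04 after centring on GC. KPNA1 (chr3:122421949-122514945) had 7.02 and 1.85 FPKM, 3.8-fold lower (3.34 to 4.34).

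KPNA5, the third gene of the subfamily of KPNA1 and KPNA6, did not move with them. It had 1.82 FPKM with pccl and 2.54 with USP6, a ratio of 1.39 (1.11 to 1.75). KPNA3 and KPNA4, which form another subfamily, also differed: KPNA3 had 15.6 and 5.71 FPKM, 2.74-fold lower (2.42 to 3.10), while KPNA4 had 14.0 and 11.2 FPKM, a ratio of 0.795 (0.739 to 0.854). KPNA2, an adaptor known from dividing cells, had 23.6 and 10.2 FPKM, 2.31-fold lower (2.10 to 2.55). The leading adaptor by FPKM was thus KPNA2 with pccl, with 35.7% of the family, and KPNA4 with USP6, with 35.3%. Per merged exon length, explained below, KPNA2 led in both, with 41.5% and 40.4%. KPNA7, an adaptor of the early embryo, had no count.

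Among the import receptors of the importin beta family, KPNB1, IPO7 and IPO8 were lower and RANBP6 was higher. That is 30% and 10% of the 10 expressed receptors, against 11.4% and 13.7% of all expressed genes. The median log2 ratio of the 10 was -0.26. KPNB1 (ENSG00000108424, chr17:47649476-47685505), the beta partner of all importin alpha adaptors, had 7963 counts (59.5 FPKM) with pccl and 3500 counts (25.7 FPKM) with USP6. It was 2.31-fold lower (2.22 to 2.41), the same fold as KPNA2. IPO7, an import receptor for ribosomal proteins and linker histones, had 37.8 and 14.2 FPKM, 2.67-fold lower (2.52 to 2.83). Its close relative IPO8 had 5.51 and 1.44 FPKM, 3.83-fold lower (3.22 to 4.56), so both genes of this pair were lower.

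RANBP6 (chr9:6011043-6015625) had 87 counts (1.13 FPKM) with pccl and 257 counts (3.27 FPKM) with USP6, 2.90-fold higher (2.27 to 3.75). Its log2 ratio of 1.01 was 0.94 when scaled by the trimmed mean and 1.37 after centring on GC. Its close relative IPO5, a receptor for ribosomal proteins, had 7.81 and 7.18 FPKM, a ratio of 0.920 (0.856 to 0.988), so this pair did not move together. IPO9 had 6.07 and 8.39 FPKM and a ratio of 1.38 (1.27 to 1.5), and IPO13 2.68 and 3.84 FPKM with a ratio of 1.43 (1.19 to 1.72). The log2 ratio of IPO13 went from 0.39 to -0.03 after centring on GC. TNPO1, the receptor for signals ending in proline-tyrosine, had 1.16 and 0.912 FPKM, and TNPO3, which imports SR splicing factors, 10.7 and 8.17 FPKM. IPO11 had 160 and 49 counts, a ratio of 0.301 (0.214 to 0.417). It lay within the limit, with a log2 ratio of -0.62, since the pseudocount weighs on genes near 1 FPKM. IPO11 overlaps KIF2A on the same strand, which had a log2 ratio of -1.14. IPO4 and TNPO2 stayed under 1 FPKM in both libraries. Over the 12 receptors the sum went from 16845 to 9569 counts, and the share of their summed FPKM held by KPNB1 went from 44.2% to 34.7% and that of IPO7 from 28.1% to 19.1%.

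Of the 7 expressed exportins, XPO4 alone passed the limit (14.3%), where 11.4% of all expressed genes were lower. None was higher, against 13.7%. XPO1 and XPOT came near the limit with log2 ratios of -0.94 and -0.89, while XPO5 lay at -0.70, the median of the list. After centring on GC, XPO4 (-0.96), XPO1 (-0.58), XPOT (-0.57) and XPO5 (-0.66) all lay within the limit. XPO4, which exports the translation factor EIF5A, had 782 counts (3.55 FPKM) with pccl and 185 counts (0.825 FPKM) with USP6, 4.30-fold lower (3.66 to 5.08). XPO1 (ENSG00000082898, chr2:61477849-61538626), the receptor for leucine-rich export signals, had 7.55 and 3.47 FPKM, a ratio of 0.459 (0.424 to 0.496). Its log2 ratio was -0.94 as deposited, -1.02 when scaled by the trimmed mean and -0.58 after centring on GC. XPOT, the exportin of transfer RNA and the most abundant of the list by FPKM, had 38.8 and 20.5 FPKM, a ratio of 0.527 (0.50 to 0.555). XPO5, which exports microRNA precursors and overlaps POLR1C, had 3.40 and 1.72 FPKM, a ratio of 0.505 (0.434 to 0.586).

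The other expressed exportins had ratios between 0.802 and 1.08. CSE1L, which returns importin alpha to the cytoplasm, had 17.9 FPKM with pccl and 14.4 with USP6, a ratio of 0.802 (0.734 to 0.875). XPO6, the exportin of actin, had 8.35 and 9.04 FPKM and a ratio of 1.08 (1.01 to 1.16), and its log2 ratio went from 0.10 to -0.12 after centring on GC. XPO7 had 1175 and 1196 counts and a ratio of 1.0 (0.922 to 1.09). Its relative RANBP17 stayed under 1 FPKM, with 59 and 135 counts and a ratio of 2.25 (1.64 to 3.11). The summed counts of the importin alpha adaptors, at a ratio of 0.482 (0.461 to 0.505), thus differed from their exporter CSE1L. Single adaptors varied: KPNA4 had a ratio of 0.795, close to that of CSE1L, and KPNA5 one of 1.39.

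**Figure D3:**
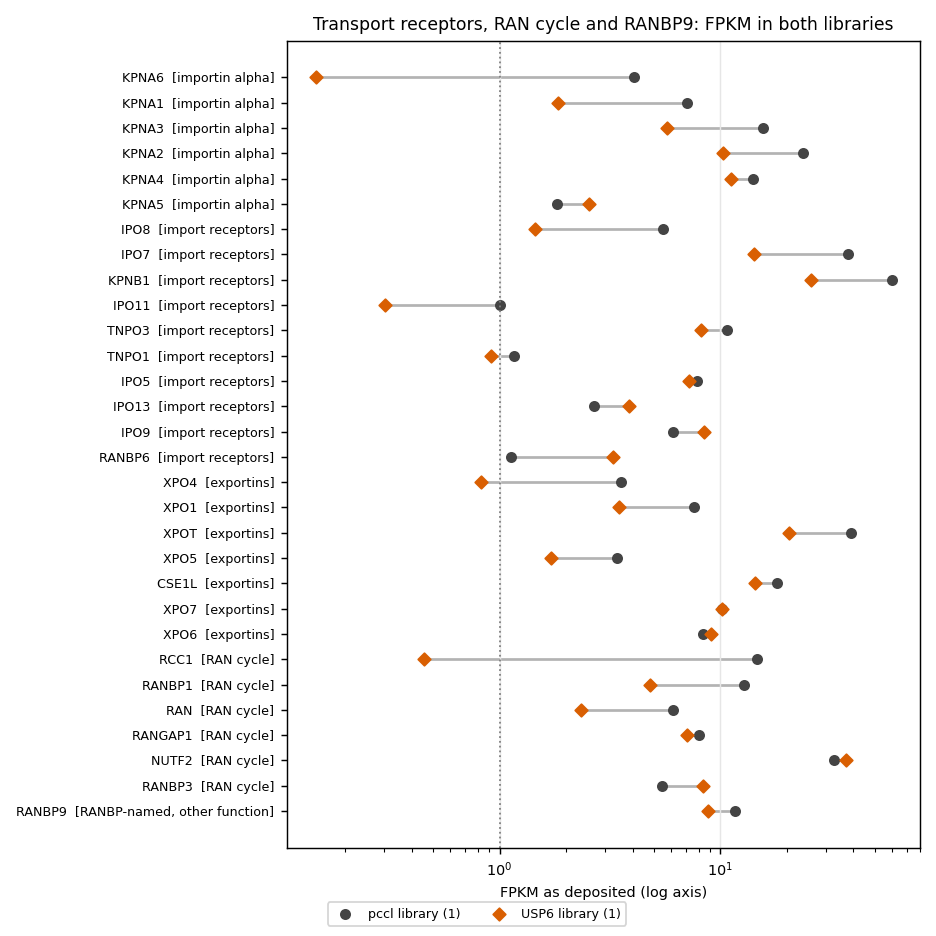
FPKM as deposited (log axis) of the 30 expressed transport receptors, RAN cycle genes and RANBP9 in the pccl (dark circles) and USP6 (orange diamonds) libraries, 1 library each, with a dotted line at 1 FPKM. RCC1 and KPNA6 show the longest spans, while XPO7, XPO6 and IPO5 nearly coincide.

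**Figure D4:**
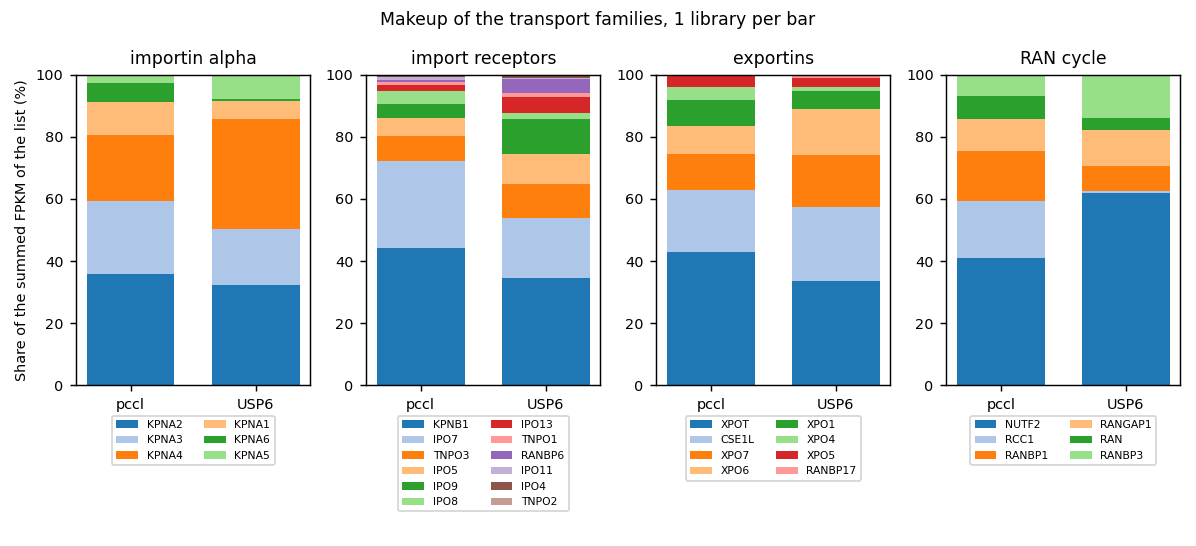
Share (%) of the summed FPKM of each list held by each of its members, with 1 stacked bar per library. KPNA4 takes up more of the importin alpha bar with USP6 (35.3%) than with pccl (21.2%), and NUTF2 more of the RAN cycle bar (61.7% against 41.0%).

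The pore genes themselves spanned log2 ratios from -1.56 to 0.82, where all members spanned -3.42 to 1.01, with 3 of 23 expressed members lower (13.0%) and 0 higher, against 11.4% and 13.7% of all expressed genes, and a median of -0.39, or -0.14 after centring on GC. The 3 lower genes belong to different substructures. NUP153 (ENSG00000124789, chr6:17615035-17706834), a repeat protein of the nuclear basket, had 359 counts (4.0 FPKM) with pccl and 64 counts (0.702 FPKM) with USP6, 5.71-fold lower (4.36 to 7.57). NUP58 (chr13:25301524-25349800), part of the channel trimer, had 553 counts (3.19 FPKM) and 95 counts (0.539 FPKM), 5.92-fold lower (4.76 to 7.44). NUP155 (chr5:37288137-37371181), a scaffold protein of the inner ring, had 9.47 and 2.93 FPKM, 3.23-fold lower (2.89 to 3.61).

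The partners of these genes did not drop as far. In the basket, TPR, which forms its filaments, had 5.20 FPKM with pccl and 5.01 with USP6, a ratio of 0.964 (0.878 to 1.06), and NUP50 had 9.91 and 7.77 FPKM. In the channel, the trimer partners NUP54 and NUP62 had ratios of 0.459 (0.369 to 0.568) and 0.693 (0.623 to 0.771), against 0.169 for NUP58. NUP62 overlaps ATF5 on the other strand, which had 28.8 and 75.5 FPKM. NUP98 had 1.42 and 1.87 FPKM, a ratio of 1.32 (1.14 to 1.53), and its share of the channel list went from 13.7% to 32.2%. In the inner ring, NUP188 had 8.51 and 7.78 FPKM and overlaps SH3GLB2 on the other strand, which had 41 and 272 counts. NUP93 had a ratio of 1.09, NUP205 one of 0.660, and NUP35 one of 0.516 on 120 and 63 counts.

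All 6 genes of the outer ring lay within the limit, as did 7601 of 10153 expressed genes, and they ranged widely. NUP85 had 282 counts (2.37 FPKM) with pccl and 599 counts (4.94 FPKM) with USP6, a ratio of 2.09 (1.81 to 2.41) and a log2 ratio of 0.82. NUP133 had 2.28 and 1.01 FPKM, a ratio of 0.441 (0.339 to 0.570), so these subunits of the same ring lay on opposite sides. NUP43, the most abundant of the list, had 11.2 and 9.45 FPKM and overlaps PCMT1, with a log2 ratio of -1.05. NUP37, NUP107 and NUP160 had ratios of 0.549, 0.701 and 1.07. The summed counts of the ring were close, 2593 and 2523, with a ratio of 0.956 (0.905 to 1.01).

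None of the 4 expressed genes of the cytoplasmic filaments was lower, where 11.4% of all expressed genes were, so a list this small says little. The fusion partner NUP214 had 1.71 FPKM with pccl and 1.55 with USP6, a ratio of 0.903 (0.793 to 1.03), and its partner NUP88 had 3.23 and 3.76 FPKM, a ratio of 1.16 (1.01 to 1.34). NUP88 overlaps RABEP1 on the other strand, which had a log2 ratio of -1.09. RANBP2, the large filament protein that binds RAN and SUMO-modified RANGAP1, had 5.65 and 3.94 FPKM, a ratio of 0.697 (0.629 to 0.772). The 7 RGPD genes copy much of RANBP2 and had 275 and 224 counts in all, so RANBP2 reads are uncertain; with them added the ratio was 0.721 (0.660 to 0.787). The membrane glycoprotein gene NUP210 had 7.62 and 5.15 FPKM, and its log2 ratio was -0.49, or -0.92 after centring on GC. RANBP9, which carries the RANBP name but belongs to a ubiquitin ligase complex, had 11.6 and 8.75 FPKM.

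**Figure D5:**
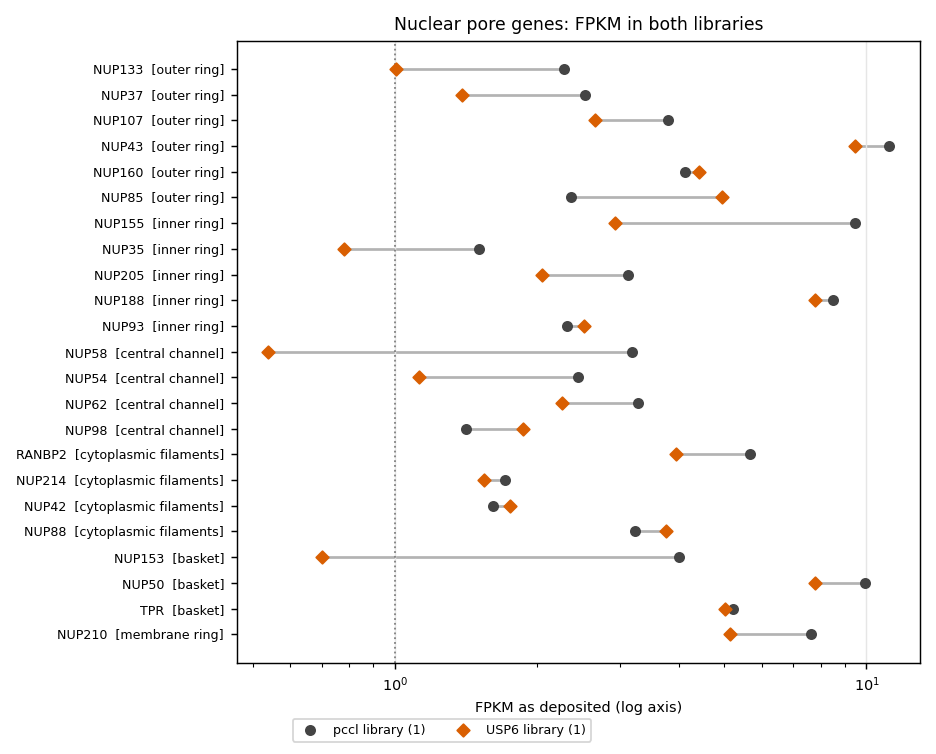
FPKM as deposited (log axis) of the 23 expressed nuclear pore genes in the pccl (dark circles) and USP6 (orange diamonds) libraries, 1 library each, ordered by substructure and log2 ratio, with a dotted line at 1 FPKM. NUP58, NUP153 and NUP35 lie below 1 FPKM with USP6, and NUP85 shows the widest span to the right.

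Levels can be set between genes only per length, and the deposited FPKM uses a length that inflates with the annotation. In 56 of the 59 members with a count, the length implied by count and FPKM equals the sum of all distinct exons annotated in GENCODE release 29, within 1%, so overlapping exons of alternative transcripts are counted repeatedly. The exceptions were RCC1, KPNA5 and NUP98. This length was a median of 1.41 times the merged exon length over the expressed members. It was 2.30 times for RAN and 3.48 times for NUP62. Per merged exon length, RAN had 13.9 FPKM with pccl and 5.35 with USP6, and NUP62 11.4 and 7.90. On that scale KPNB1 was the most abundant member with pccl, with 84.3 FPKM, followed by NUTF2 (62.4), IPO7 (45.2) and XPOT (44.9). In the USP6 library NUTF2 led with 71.2 FPKM, followed by KPNB1 (36.4), XPOT (23.7) and CSE1L (19.7). RCC1 went from rank 6 to rank 49 of 53. Ratios between the libraries do not depend on the length, but the pseudocount and the 1 FPKM filter do: with merged lengths 56 members passed, of which 15 were lower and 1 higher.

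The rest of the pathway was described by a list of 39 genes. Of these, which are pore genes without a NUP number, RNA export factors, cargo adaptors and SUMO enzymes, 36 were expressed, 4 were lower (11.1%) and 0 higher, with a median log2 ratio of -0.08. The share lower was thus close to the 11.4% of all expressed genes, of which 13.7% were higher. The pore membrane gene NDC1 had 17.9 FPKM with pccl and 4.86 with USP6, 3.68-fold lower (3.26 to 4.17). ALYREF, an adaptor of messenger RNA export, had 29.4 and 5.31 FPKM, 5.54-fold lower (4.60 to 6.73). POM121 and DDX19A were also lower, with 273 and 37 counts and with 228 and 7. Both have a near-identical copy, and reads could have been split between copies. With the copies added, POM121 and POM121C went from 1251 to 746 counts, still lower at a ratio of 0.586 (0.535 to 0.642). DDX19A and DDX19B went from 631 to 695, a ratio of 1.08 (0.971 to 1.21).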

How the data were processed

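RNA of KASUMI-1 cells was sequenced, 1 library per group, per the labels. HISAT2 2.0.4, StringTie 1.3.3b and edgeR are listed, without roles, per the submitters' processing notes. Build and strandedness are not given in the sources used here. Whole-number counts per gene were deposited by the authors. The deposited FPKM scales these counts by gene length and library sum, as checked on the values. Of 50111 identifiers found in GENCODE release 29 (GRCh38), 94.8% had the identical locus, and coordinates are those of the file.

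FPKM and counts of genes with 1 symbol were summed. The log2 ratio used a pseudocount of 1 FPKM, the filter was 1 FPKM in the higher library and the limit was 1 or -1. Ratios have exact conditional binomial (Clopper-Pearson) intervals at 95% from the counts. With 0 residual degrees of freedom no test was made. GC content is that of the longest GENCODE transcript, with a lowess trend of span 0.3 over expressed genes. Alternatives changed the pseudocount, filter, scaling, limit and members. The steps were tested on simulated data. Named were the RAN cycle genes and main carriers, every member past the limit, and per list the most abundant member and those of largest ratio; others named were chosen after their values were seen. The members and lists were chosen with earlier results of these data known. Promoters come from RefSeq (GRCh38.p14). Python 3.11.15, pandas 2.3.3, SciPy 1.17.1, statsmodels 0.14.6 and edgeR 4.0.16 (trimmed mean of M values) were used.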

Additional observations from a re-analysis of the deposited data

How the results depend on the processing

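The count of lower members was 14 as reported. It lay between 10 and 20 under the other settings tried, except 3 with a pseudocount of 5 and 9 after centring on the GC trend. The single higher member, RANBP6, lies near the limit. It fell to 0.94 with the trimmed mean or with a median log2 ratio of all expressed genes set to 0, leaving 0 higher. The count was also 0 with a pseudocount of 5 (RANBP6 at 0.43) and with a filter of 5 FPKM (29 members), which RANBP6 does not reach. It was 2 with a pseudocount of 0.1, where NUP85 (1.03) joined, or a 1.5-fold limit, which NUP85 (0.82) passes. The members' median stayed below 0 under every alternative, from -0.50 (pseudocount 0.1) to -0.21 (GC trend). All 15 members past the limit kept their direction under the 7 alternatives of pseudocount, scaling, GC and length. This says little, since a pseudocount or a length cannot turn the direction. The scalings moved the values too little to turn a member past the limit. IPO7 and RCC1 also stayed past the limit in all 7 alternatives. The trimmed mean and the depth from nuclear genes shifted the log2 scale by -0.10 and -0.12. After centring on GC the log2 ratios of CSE1L (0.06), KPNA4 (0.06), NUP43 (0.07), TNPO1 (0.17), IPO5 (0.21) and TPR (0.30), below 0 as reported, lay above 0, and those of IPO13 (-0.03) and XPO6 (-0.12), above 0 as reported, lay below 0; the cause was not tested. Merged exon lengths and a filter on the mean of both libraries were added after the data were seen. No paired analysis was possible because each group is 1 library. Leaving out a replicate was not possible either. Some values under 1 FPKM rest on few counts, such as that of KPNA6 with 19 counts (0.147 FPKM) in the USP6 library.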
